A study of Mus musculus with 6 samples.

Results

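The autophagy machinery was followed as a set of 38 genes, picked by name from the 29097 genes listed in the count table, in neutrophils of mouse peripheral blood (PB). The set covers the kinases that start autophagy, the lipid kinase and lipid transfer proteins that build the membrane, the conjugation enzymes, the LC3 and GABARAP proteins, cargo receptors and a pair of transcription factors. Of the 38 genes, 37 were tested among 10440 genes that reached an average FPKM of 1, while *Atg2b* lay under this filter. FPKM is the read count scaled to gene length and to the library total. C57BL/6 wild type male mice of 8 weeks either had silk tied around the second molars of both jaws for 14 d, which gives ligature-induced periodontitis (LIP, written Lig in the sample labels), or were left without ligature for the same time (Ctrl). CD45+CD11b+Ly6G+ cells were sorted from blood, and each group has 3 libraries, every one of them a pool of 5 mice. Smart-seq2 was used, in which polyadenylated RNA is copied into full-length cDNA and amplified by PCR before sequencing. The comparison asks whether autophagy transcripts of circulating neutrophils differ between mice with and without periodontitis, and a p-value here measures the spread between pooled libraries, not between single mice.

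Autophagy is the process by which a cell encloses part of its cytoplasm in a double membrane, the autophagosome, and delivers it to the lysosome for breakdown. The ULK1 kinase complex starts the process and a class III PI3-kinase complex around beclin 1 marks the site with the lipid PI3P. WIPI proteins read that lipid, ATG9 and ATG2 bring further lipid, and a pair of ubiquitin-like conjugation systems then couples LC3 and GABARAP proteins to the growing membrane, where receptors such as p62 dock their cargo. In neutrophils, autophagy genes are known to take part in differentiation, granule release and the formation of extracellular traps. The transcription factors TFEB and TFE3 switch on autophagy and lysosome genes through the CLEAR element, whose core is the E-box CACGTG.

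Promoter sequences are shown for *Atg3* and *Atg7*, conjugation enzymes whose transcripts rose in LIP and whose promoters hold this core, and for *Atg5*, a conjugation partner that holds it and whose transcript was not called. Letters are from RefSeq on build GRCm38.p6, read 5′ to 3′ on the strand of the gene, with each CACGTG in capitals.
Atg3: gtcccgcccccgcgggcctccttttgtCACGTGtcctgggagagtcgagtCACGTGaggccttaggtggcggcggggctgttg
Atg7: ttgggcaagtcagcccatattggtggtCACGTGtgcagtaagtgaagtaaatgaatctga
Atg5: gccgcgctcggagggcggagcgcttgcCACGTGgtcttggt
The *Atg3* stretch is chr16:45158708-45158790 on the plus strand and holds the core at 94 and at 71 bases before the RefSeq start. Its last bases run into the first exon as GENCODE M21 draws it. For *Atg7* the stretch is chr6:114670937-114670996 on the plus strand, with the core 132 bases before the RefSeq start, and it lies inside the gene as the count table draws it but in no annotated *Atg7* exon. The *Atg5* stretch is chr10:44268298-44268338 on the plus strand, with the core 14 bases before the start and no overlap with an *Atg5* exon.

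A promoter of 250 bases before to 50 bases after the start was found for 32 of the 38 genes, and CACGTG, which reads the same on both strands, occurred in 4 of them (*Atg3*, *Atg5*, *Atg7* and *Atg14*), or 12.5%. Among 27025 genes with such a promoter, 8.09% held it. The longer form TCACGTGA, which contains CACGTG, was found for *Atg3* only among the 32, against 1.12% of all promoters. The longest form searched, a palindrome that extends TCACGTGA by a further base on each side, was found in 0 of the 32. It occurred in 0.37% of all promoters. Of the 16 genes with a promoter whose transcripts rose in LIP, 2 held CACGTG. A match is a run of letters and does not show binding.

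Libraries held 52301060 to 54358483 counts in Ctrl and 52186555 to 57262379 in LIP. Reads are PCR copies without molecular identifiers, so these totals do not give the number of molecules sampled. The groups differed in what else the sorted cells held. Haemoglobin genes took 14.6% to 15.0% of counts in Ctrl and 1.55% to 1.61% in LIP. Of 9 erythroid markers tested, a list that includes haemoglobin genes, 8 were lower in LIP and 1 was higher. All 11 B cell markers and all 12 T cell markers tested were lower in LIP, and the B cell markers took 2.08% to 2.26% of counts in Ctrl and 0.339% to 0.346% in LIP. T cell markers took 0.0908% to 0.0990% and 0.0148% to 0.0181%. The 20 mature neutrophil markers, *S100a8* and *Csf3r* among them, were all higher in LIP, at 1.84% to 1.99% of counts in Ctrl and 5.66% to 5.98% in LIP. All 10 platelet markers were higher too, at 0.123% to 0.139% and 0.237% to 0.292%. Of 9 monocyte markers 6 were higher and 1 lower, and of 7 eosinophil and basophil markers tested 2 were higher and 1 lower. Of 6 NK cell markers 3 were higher, but 0 when counts were scaled to library totals alone. NK cell markers took 0.0289% to 0.0355% of counts in Ctrl and 0.0313% to 0.0333% in LIP, so the groups overlapped. Neutrophil precursor markers took at most 0.00247% of counts in any library, and no marker of any list was at 0 throughout. What part these cells have in the autophagy differences was not tested, and in such bulk samples fewer cells of a type and less RNA per cell cannot be told apart.

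With TMM scaling most autophagy genes that were called were higher in LIP, a majority that shrinks with library totals and turns with scaling on neutrophil markers. By edgeR's quasi-likelihood test on the counts with TMM scaling, adjusted by the Benjamini-Hochberg method over all 10440 genes, 20 of the 37 genes rose, 1 fell (*Atg4b*) and 16 were not called at an adjusted p under 0.05. Over all genes tested, 26.5% were called higher and 27.2% lower, and 53.6% were called in either direction. The median log2 fold change was 0.42 over the 37 genes and -0.09 over all genes. The same 20 genes had all LIP libraries above all Ctrl libraries, and *Atg4b* had all of them below, while the groups overlapped for the other 16. Such separation occurred for 30.3% of all genes upward and 33.1% downward, 63.4% in all.

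How libraries are scaled sets the number of calls. With library totals, under which the median of all genes shifted to -0.42, 10 autophagy genes were called higher and 6 lower, against 18.4% and 39.7% of all genes (58.1% in either direction). With totals taken without haemoglobin genes, 8 were higher and 8 lower, against 14% and 49% (63% in either direction). When the mature neutrophil markers were used as the yardstick, 0 autophagy genes were higher and 34 lower, against 0.651% and 88.2% of all genes (88.9% in either direction), a share of the autophagy genes near that of all genes. Under that yardstick the median log2 fold change was -1.37 over the autophagy genes and -1.89 over all genes. The distance of the autophagy median from the median of all genes was 0.52 under each of these scalings, and 29 of the 37 genes lay above the median of all genes in every one. Scaling moves all genes by about the same amount, so this agreement between scalings was fixed in advance and adds no evidence. *Ulk1*, *Atg9a*, *Atg3*, *Atg7*, *Gabarap*, *Map1lc3b*, *Optn* and *Tfe3* were called higher with TMM, with median-of-ratios factors and with both kinds of library totals, and *Atg2a* and *Becn1* in all of these but the totals without haemoglobin. Each direction given for single genes is relative to TMM unless stated, and the sign turns for all 20 genes called higher when the neutrophil markers are the yardstick. Of these 20, *Ulk1* (-0.11, adjusted p = 0.529, edgeR), *Optn* (-0.25, adjusted p = 0.219, edgeR) and *Atg4c* (-0.55, adjusted p = 0.194, edgeR) were then not called lower.

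**Figure D1:**
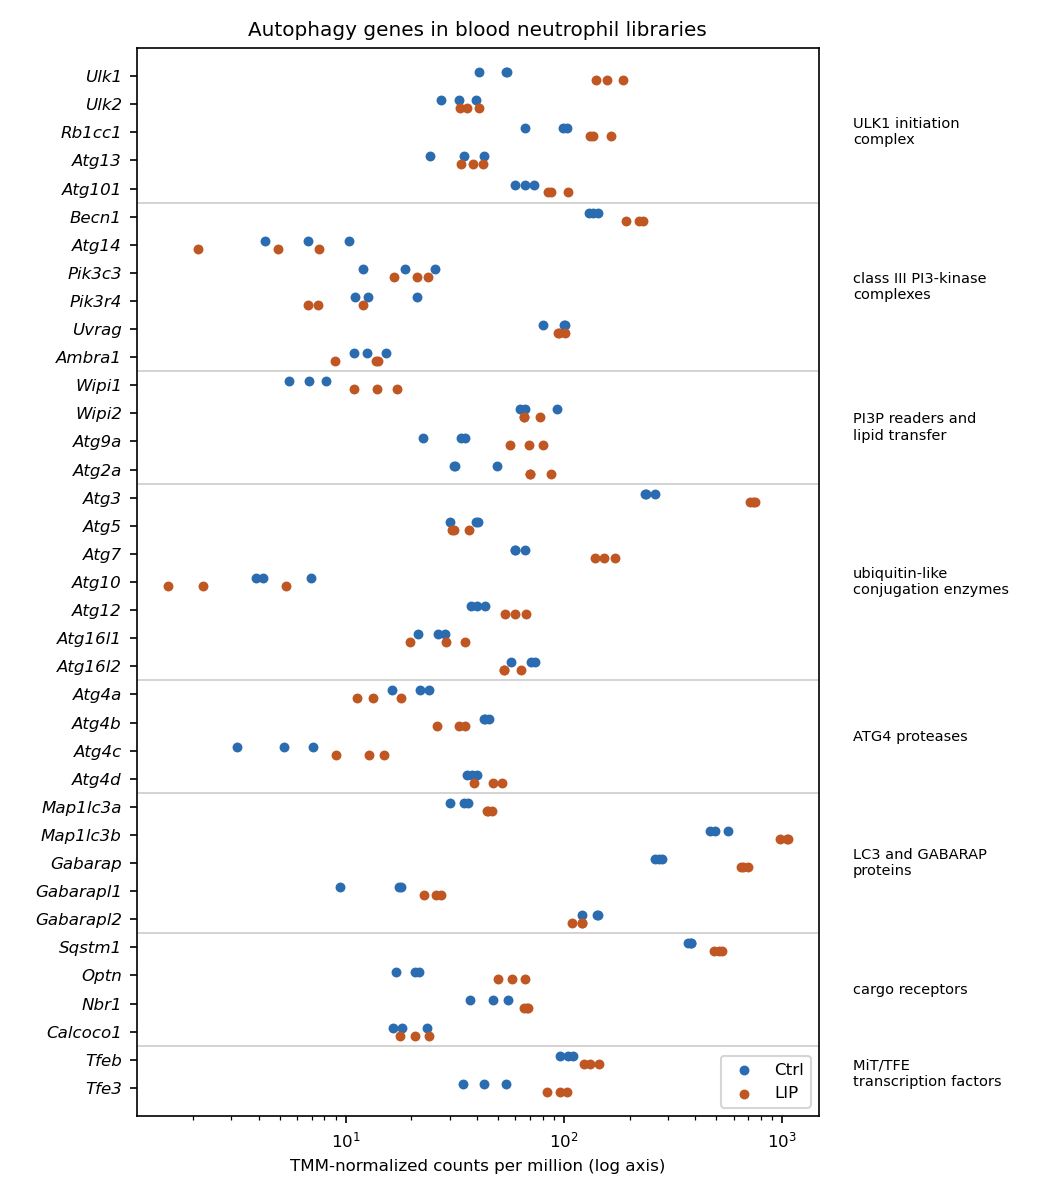
TMM-normalized CPM (log axis) of the 37 tested autophagy genes, grouped by role, with 1 point for each of the 3 Ctrl (blue) and 3 LIP (orange) libraries. LIP points lie wholly to the right for 20 genes and wholly to the left for *Atg4b*, relative to TMM, and the sign of the 20 turns with scaling on neutrophil markers, under which 88.2% of all genes are called lower.

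In the ULK1 initiation complex, 3 of 5 genes rose (*Ulk1*, *Rb1cc1* and *Atg101*), with a median log2 fold change of 0.47. Library totals called 1 of the 5 higher and 0 lower. Beside this and each role below, TMM called 26.5% of all genes higher and 27.2% lower. The shares of all genes with library totals were 18.4% and 39.7%. *Ulk1* (ENSMUSG00000029512, chr5:110784488-110810097) encodes the kinase itself and had the highest fold change among the tested genes of the set. Its level was 54.7, 40.9 and 54.1 CPM (counts scaled to library size with TMM factors) in the Ctrl libraries and 187, 139.7 and 157 CPM in the LIP libraries. The groups were far apart, with the lowest LIP library above the highest Ctrl library by more than the spread within either group. The log2 fold change was 1.69 ± 0.158 (SE, n = 3 and 3, adjusted p = 1.00e-05, edgeR). *Ulk2*, its closest paralogue, was not called, at 33.3 ± 6.18 CPM in Ctrl and 36.7 ± 3.73 CPM in LIP (SD, n = 3, log2 fold change 0.14, adjusted p = 0.537, edgeR).

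*Rb1cc1* (ENSMUSG00000025907, chr1:6206197-6275575) encodes the scaffold FIP200. It measured 104, 66.4 and 99.5 CPM in Ctrl and 165, 131 and 136 CPM in LIP, with Ctrl 2 the lowest and no overlap. Its log2 fold change was 0.68 ± 0.174 (SE, adjusted p = 0.00742, edgeR), and it was not called with library totals (adjusted p = 0.109, edgeR). *Atg101* (ENSMUSG00000037204, chr15:101284272-101290945), a small subunit that steadies ATG13, had the highest FPKM of the complex, 42.8 in Ctrl and 48.0 in LIP on average. In CPM it stood at 59.7, 73.0 and 66.5 in Ctrl and 84.4, 105 and 87.1 in LIP, so the groups did not overlap but came close. The log2 fold change of 0.47 ± 0.136 (SE, adjusted p = 0.0142, edgeR) was no longer called without LIP 2 (adjusted p = 0.0687, edgeR) or with library totals (adjusted p = 0.341, edgeR). *Atg13*, the regulatory subunit, was not called (log2 fold change 0.16, adjusted p = 0.537, edgeR).

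Of the 6 genes of the class III PI3-kinase complexes only *Becn1* rose, and their median log2 fold change was -0.01. Library totals called 1 of the 6 higher and 1 lower. *Becn1* (ENSMUSG00000035086, chr11:101285952-101302286) encodes beclin 1, the scaffold shared by both complexes. Ctrl libraries gave 144, 137 and 131 CPM against 229.6, 222 and 192 CPM in LIP. All LIP libraries lay above all Ctrl libraries. On the log2 scale LIP differed from Ctrl by 0.65 ± 0.111 (SE, adjusted p = 0.000697, edgeR) and 0.33 with library totals (adjusted p = 0.0267, edgeR).

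The kinase subunit *Pik3c3* had 18.8 ± 6.90 CPM in Ctrl and 20.6 ± 3.58 CPM in LIP (SD, n = 3, log2 fold change 0.13, adjusted p = 0.719, edgeR). *Uvrag*, a subunit of the endosomal complex, stood at 93.8 ± 11.6 and 96.8 ± 3.71 CPM (SD, n = 3, log2 fold change 0.05, adjusted p = 0.778, edgeR). *Ambra1*, a regulator of beclin 1, gave a log2 fold change of -0.07 (adjusted p = 0.836, edgeR). The genes for the other subunits pointed downward without passing the test. *Pik3r4*, which encodes the VPS15 subunit that anchors the kinase, had 12.7, 11.1 and 21.3 CPM in Ctrl and 12.0, 6.72 and 7.48 CPM in LIP. LIP 1 fell within the Ctrl range, and the log2 fold change of -0.78 had an adjusted p of 0.0711 by edgeR, which became 0.0202 without LIP 1 and 0.0177 with library totals. *Atg14*, the subunit that sends the complex to the autophagosome site, was low throughout at 2.12 to 10.4 CPM and overlapped between groups (log2 fold change -0.55, adjusted p = 0.358, edgeR).

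Among PI3P readers and lipid transfer genes, 3 of the 4 tested rose, with the highest median log2 fold change of any role, 1.02. Library totals called 2 of the 4 higher and 0 lower. *Atg9a* (ENSMUSG00000033124, chr1:75180860-75191955) encodes the lipid scramblase carried by small vesicles. It was measured at 35.4, 22.6 and 33.9 CPM in Ctrl and at 56.6, 69.1 and 80.3 CPM in LIP. No libraries overlapped, although both groups spread widely. The log2 fold change was 1.17 ± 0.201 (SE, adjusted p = 0.000725, edgeR), and a small part of the exons of *Atg9a* is shared with a neighbouring expressed gene.

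*Atg2a* (ENSMUSG00000024773, chr19:6241668-6262335) encodes a bridge along which lipid flows into the new membrane. Ctrl libraries held 49.7, 31.9 and 31.5 CPM and LIP libraries 87.2, 70.2 and 69.7 CPM. Ctrl 1 stood above the other Ctrl libraries and still below each LIP library, and the log2 fold change was 1.01 ± 0.196 (SE, adjusted p = 0.00156, edgeR). Its paralogue *Atg2b*, under the filter, had a mean FPKM of 0.996 in Ctrl and 0.474 in LIP.

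*Wipi1* (ENSMUSG00000041895, chr11:109573331-109611967) encodes a PI3P reader and was scarce. It gave 8.12, 6.81 and 5.48 CPM in Ctrl and 13.9, 10.9 and 17.3 CPM in LIP. The groups did not overlap, and the log2 fold change was 1.04 ± 0.290 (SE, adjusted p = 0.0116, edgeR), a call lost without Ctrl 3 (adjusted p = 0.0509, edgeR), without LIP 3 (adjusted p = 0.0501, edgeR) or with library totals (adjusted p = 0.0567, edgeR). *Wipi2*, the paralogue that recruits ATG16L1, was far more abundant at 74.0 ± 16.4 CPM in Ctrl and 69.7 ± 6.93 CPM in LIP (SD, n = 3) and was not called (log2 fold change -0.09, adjusted p = 0.679, edgeR).

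In the ubiquitin-like conjugation enzymes, 3 of 7 genes rose and 4 were not called, with a median log2 fold change of 0.13. Library totals called 2 of the 7 higher and 2 lower. The genes that rose with TMM were *Atg7*, *Atg3* and *Atg12*. *Atg3* (ENSMUSG00000022663, chr16:45158785-45188538), the E2-like enzyme that hands LC3 to its lipid, was both the most abundant of them and the one with the smallest adjusted p of all autophagy genes. Its Ctrl libraries stood at 238, 261 and 235 CPM and its LIP libraries at 737, 747 and 713 CPM. Within each group the values were tight and the gap between groups was wide. It corresponded to a log2 fold change of 1.58 ± 0.0896 (SE, adjusted p = 3.99e-07, edgeR), a 2.99-fold rise, and 1.26 with library totals. Among the 32 genes with a promoter, *Atg3* alone held the E-box form TCACGTGA, and 0 held the longest form searched.

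*Atg7* (ENSMUSG00000030314, chr6:114643097-114860614) encodes the E1-like enzyme that activates both LC3 and ATG12. It had 66.7, 59.6 and 59.9 CPM in Ctrl and 138, 172 and 154 CPM in LIP, again with no overlap. The log2 fold change was 1.32 ± 0.125 (SE, adjusted p = 1.09e-05, edgeR). *Atg12* (ENSMUSG00000032905) encodes the ubiquitin-like partner of ATG5. Its libraries gave 43.7, 40.2 and 37.7 CPM in Ctrl and 54.0, 67.0 and 60.0 CPM in LIP, with a log2 fold change of 0.57 ± 0.143 (SE, adjusted p = 0.00659, edgeR) that was not called with library totals (adjusted p = 0.155, edgeR).

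The genes of the other partners in the ATG12-ATG5-ATG16L1 complex were not called. *Atg5* had 30.1, 40.6 and 39.4 CPM in Ctrl and 30.8, 36.6 and 31.3 CPM in LIP, with every LIP value inside the Ctrl range (log2 fold change -0.16, adjusted p = 0.468, edgeR). *Atg16l1* overlapped at 25.4 ± 3.65 and 27.9 ± 7.72 CPM (SD, n = 3, adjusted p = 0.645, edgeR), and *Atg16l2*, its less studied paralogue, at 67.3 ± 8.67 and 56.6 ± 5.87 CPM (SD, n = 3, adjusted p = 0.170, edgeR). *Atg10*, the E2-like enzyme for ATG12, was among the scarcest at 1.53 to 6.94 CPM (log2 fold change -0.73, adjusted p = 0.243, edgeR) and was called lower only when LIP 3 was left out (-1.41, adjusted p = 0.0303, edgeR). With library totals *Atg5* (log2 fold change -0.48, adjusted p = 0.0356, edgeR) and *Atg16l2* (-0.57, adjusted p = 0.00645, edgeR) were called lower.

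The 4 ATG4 proteases, which trim LC3 before conjugation and cut it off membranes afterwards, moved in both directions. Their median log2 fold change was -0.10, with 1 called higher and 1 lower. Library totals called 0 higher and 2 lower. *Atg4b* (ENSMUSG00000026280, chr1:93751500-93790610), the most active of them on LC3, was at 43.2, 45.6 and 43.7 CPM in Ctrl and 35.4, 26.4 and 33.0 CPM in LIP. Ctrl libraries were nearly equal and all LIP libraries lay below them. This gave a log2 fold change of -0.48 ± 0.162 (SE, adjusted p = 0.0281, edgeR), a call that was lost in 4 of the 6 fits that leave out a library, namely without Ctrl 1 (adjusted p = 0.0596), Ctrl 2 (0.0791), Ctrl 3 (0.0693) or LIP 2 (0.0993), but held with library totals (adjusted p = 0.00201, edgeR).

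*Atg4c* (ENSMUSG00000028550, chr4:99193934-99259787), by contrast, was higher in LIP. It measured 7.11, 5.21 and 3.17 CPM in Ctrl and 9.0, 15.0 and 12.8 CPM in LIP, with little room between Ctrl 1 and LIP 1. Its log2 fold change was 1.25 ± 0.361 (SE, adjusted p = 0.0142, edgeR), which was not called without Ctrl 3 (adjusted p = 0.0516, edgeR), without LIP 2 (adjusted p = 0.0551, edgeR) or with library totals (adjusted p = 0.0513, edgeR). *Atg4a* (ENSMUSG00000079418, chrX:140956907-141164270), which prefers GABARAP proteins and had the highest mean FPKM of the family, gave 21.9, 24.1 and 16.4 CPM in Ctrl and 13.3, 17.9 and 11.2 CPM in LIP. LIP 2 overlapped Ctrl 3, and the log2 fold change of -0.56 was not called (adjusted p = 0.0854, edgeR), although it was without LIP 2 (-0.76, adjusted p = 0.0408, edgeR) and with library totals (-0.88, adjusted p = 0.0129, edgeR). *Atg4d* was not called (log2 fold change 0.28, adjusted p = 0.156, edgeR).

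Of the 5 LC3 and GABARAP genes, whose proteins are the tags on the autophagosome, 4 rose and *Gabarapl2* was not called. Their median log2 fold change was 0.76, and library totals called 2 of the 5 higher and 1 lower. *Gabarap* (ENSMUSG00000018567, chr11:69991143-69994951) had the highest FPKM of all 38 genes, 152 in Ctrl and 303 in LIP on average. In CPM, its Ctrl libraries measured 262, 283 and 272 and its LIP libraries 645, 664 and 701. Each LIP library lay far above each Ctrl library, with a log2 fold change of 1.30 ± 0.0886 (SE, adjusted p = 1.26e-06, edgeR) and of 0.98 with library totals. *Map1lc3b* (ENSMUSG00000031812, chr8:121590361-121598760), which encodes the LC3B protein used to mark autophagosomes, went from 469, 568 and 491 CPM in Ctrl to 1053, 1064 and 978 CPM in LIP. The groups were again well separated, and the log2 fold change was 1.02 ± 0.0961 (SE, adjusted p = 1.07e-05, edgeR), or 0.70 with library totals.

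The calls of *Gabarapl1* and *Map1lc3a* did not hold in every fit that leaves out a library. *Gabarapl1* (ENSMUSG00000030161, chr6:129533160-129542346) had 9.43, 18.0 and 17.5 CPM in Ctrl and 25.9, 22.8 and 27.3 CPM in LIP, with Ctrl 1 far below the other Ctrl libraries. Its log2 fold change of 0.76 ± 0.263 (SE, adjusted p = 0.0321, edgeR) was not called without Ctrl 1 (adjusted p = 0.0746), LIP 1 (0.0538) or LIP 3 (0.0803), nor with library totals (0.167). *Map1lc3a* averaged 33.8 ± 3.24 CPM in Ctrl and 45.3 ± 1.19 CPM in LIP (SD, n = 3) with a log2 fold change of 0.42 ± 0.148 (SE, adjusted p = 0.0335, edgeR). That call was kept in only 1 of the 6 fits that leave out a library, the fit without Ctrl 2, and was lost with library totals (adjusted p = 0.559, edgeR). *Gabarapl2* (GATE-16) stood at 121, 144 and 142 CPM in Ctrl and 121, 109 and 121 CPM in LIP. Ctrl 1 lay level with LIP 1 and LIP 3, so the groups overlapped, and the log2 fold change of -0.21 was not called (adjusted p = 0.152, edgeR), while with library totals it was lower (-0.53, adjusted p = 0.00307, edgeR).

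The gene length behind FPKM followed the merged exons of GENCODE M21, to within 1% for 97.1% of 10040 genes after 1 common factor. That length was 7.52 kb for *Map1lc3b* and 1.84 kb for *Gabarap*, so the order of the genes by FPKM rests partly on it.

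Cargo receptors link ubiquitin-tagged or other cargo to LC3, and 3 of the 4 rose, with a median log2 fold change of 0.48. Library totals called 1 of the 4 receptors higher and 0 lower. *Optn* (ENSMUSG00000026672, chr2:5020642-5064045), which encodes the receptor optineurin, gave the largest change among them. It had 20.8, 17.0 and 21.7 CPM in Ctrl and 66.4, 57.8 and 50.0 CPM in LIP. The lowest LIP library was more than the whole Ctrl range above the highest Ctrl library, and the log2 fold change was 1.55 ± 0.175 (SE, adjusted p = 3.76e-05, edgeR). *Sqstm1* (ENSMUSG00000015837, chr11:50199366-50210827), which encodes p62, was the most abundant receptor. It gave 369, 381 and 384 CPM in Ctrl libraries and 487, 533 and 516 CPM in LIP libraries. Both groups were tight and apart, with a log2 fold change of 0.44 ± 0.0869 (SE, adjusted p = 0.00175, edgeR) that was not called with library totals (0.12, adjusted p = 0.248, edgeR).

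*Nbr1* (ENSMUSG00000017119, chr11:101552149-101581951) encodes a receptor that works with p62. It stood at 55.5, 37.1 and 47.2 CPM in Ctrl and at 68.5, 67.9 and 65.9 CPM in LIP, with nearly equal LIP libraries and no overlap. The log2 fold change was 0.53 ± 0.160 (SE, adjusted p = 0.0169, edgeR), and with library totals 0.21 (adjusted p = 0.297, edgeR). *Calcoco1*, a receptor for the endoplasmic reticulum, was not called (log2 fold change 0.11, adjusted p = 0.703, edgeR).

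Both MiT/TFE transcription factor genes rose, with a median log2 fold change of 0.73. Library totals called 1 of the 2 higher and 0 lower. *Tfe3* (ENSMUSG00000000134, chrX:7762560-7775202) had 43.3, 34.5 and 54.4 CPM in Ctrl and 83.9, 104 and 96.1 CPM in LIP. The groups did not overlap, and the log2 fold change was 1.10 ± 0.174 (SE, adjusted p = 0.000401, edgeR). *Tfeb* (ENSMUSG00000023990, chr17:47737030-47792419) had 96.5, 110.2 and 104 CPM in Ctrl and 132, 145 and 124 CPM in LIP. Its LIP libraries were likewise all above Ctrl, but the log2 fold change of 0.37 ± 0.116 (SE, adjusted p = 0.0212, edgeR) was not called without Ctrl 1 (adjusted p = 0.0594), Ctrl 3 (0.0624) or LIP 2 (0.0818), nor with library totals (0.05, adjusted p = 0.732).

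**Figure D2:**
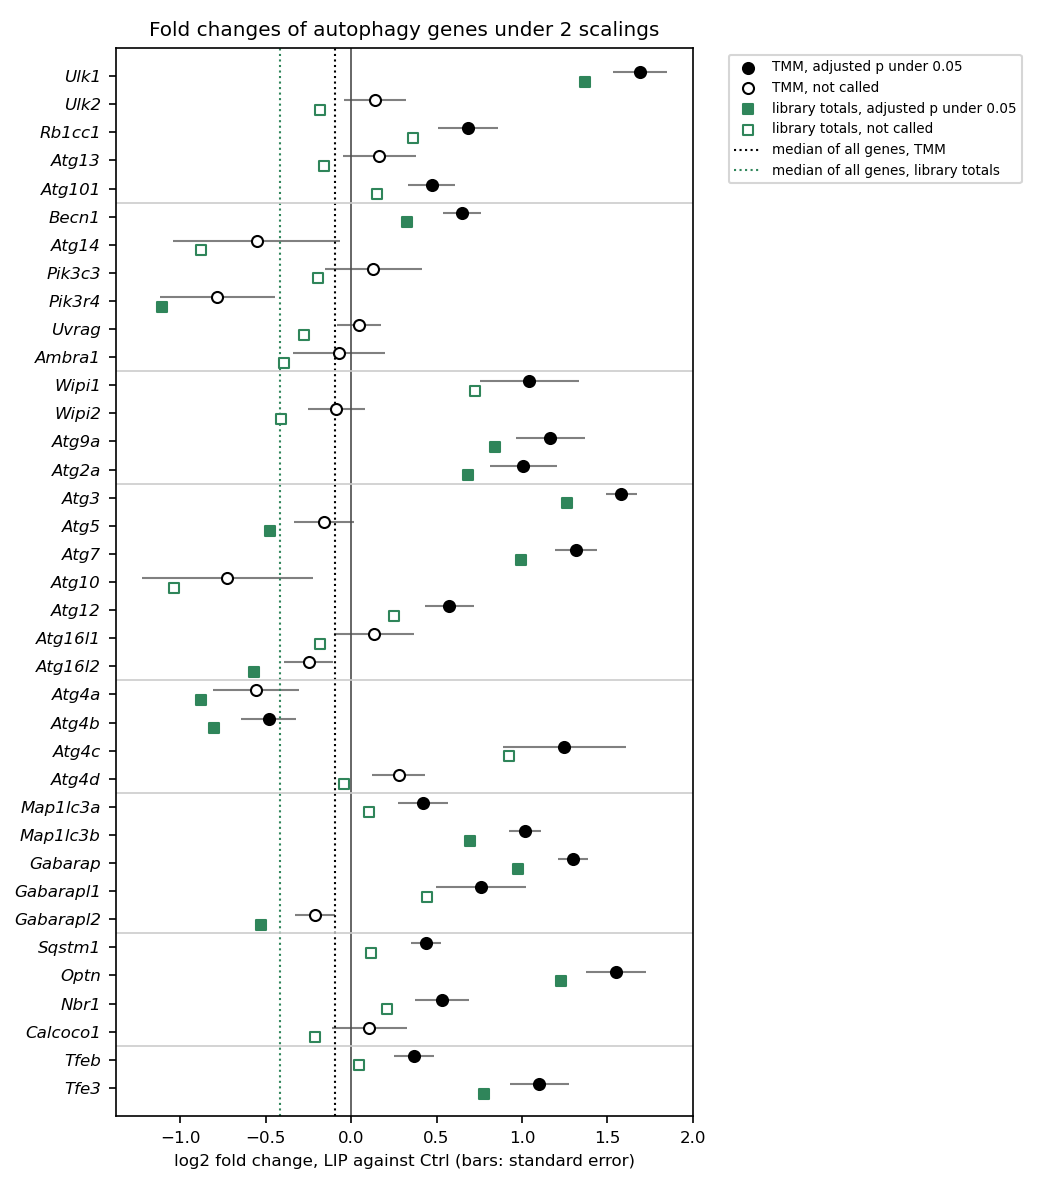
Log2 fold change of LIP against Ctrl for the 37 tested genes with TMM (circles, bars give the standard error) and with library totals (squares), filled where the adjusted p was under 0.05. Library totals move the genes to the left by about the same amount as the median of all genes (dotted lines, -0.09 and -0.42), leave 10 genes called higher and call 6 lower, while scaling on neutrophil markers calls 34 of the 37 lower, as it does 88.2% of all genes.

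Paralogues of a family were compared as shares of the summed FPKM in the same library, a ratio that no scaling of libraries can move. Such a share is not corrected for other cell types, whose markers differed between the groups, and their part in it was not tested. Shares of raw counts went the same way for all 9. *Ulk1* made up 58.0% ± 2.04 of *Ulk1* and *Ulk2* in Ctrl and 80.1% ± 0.706 in LIP (SD, n = 3). The share of *Gabarap* in the LC3 and GABARAP family was 47.7% ± 1.66 in Ctrl and 60.3% ± 1.35 in LIP, and that of *Gabarapl2* was 18.8% ± 0.763 and 8.38% ± 0.466. In each of these families the 3 LIP libraries lay on 1 side of the 3 Ctrl libraries. *Map1lc3b* held 21.9% ± 0.966 of its family in Ctrl and 22.8% ± 1.45 in LIP, with overlap.

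*Wipi1* took 18.0% ± 1.39 of the WIPI pair in Ctrl and 32.3% ± 5.52 in LIP, and *Atg2a* took 83.3% ± 1.54 and 94.8% ± 3.65 of the ATG2 pair (SD, n = 3). *Atg4b* made up 27.0% ± 2.96 of the ATG4 family in Ctrl and 20.0% ± 3.39 in LIP, and *Tfeb* 79.4% ± 4.17 and 69.8% ± 2.10 of the sum with *Tfe3*. *Atg16l1* overlapped between groups at 25.1% ± 3.94 and 30.0% ± 6.24 of the ATG16L pair. Of the 9 shares, 7 did not overlap between groups, while among single genes 63.4% of all those tested did not overlap in CPM. Each of the 7 had a two-sided exact permutation p of 0.1, the smallest that 3 libraries against 3 can give. Adjusted by the Benjamini-Hochberg method over the 9 shares it was 0.129. The exact permutation p was 0.3 for *Map1lc3b* and 0.5 for *Atg16l1*. No share can therefore pass a threshold of 0.05 in this design.

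**Figure D3:**
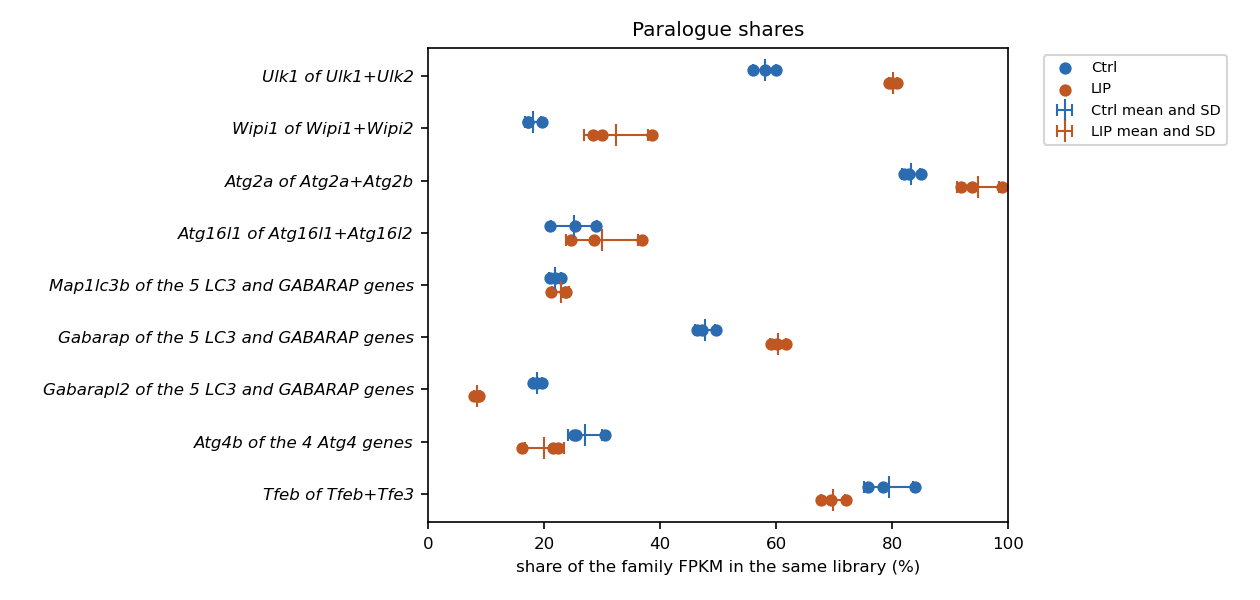
Share of a gene in the summed FPKM of its family in the same library (%), 1 point for each of 3 Ctrl (blue) and 3 LIP (orange) libraries, with the mean and SD. The groups are apart for 7 of 9 shares, with *Ulk1*, *Wipi1*, *Atg2a* and *Gabarap* higher in LIP and *Gabarapl2*, *Atg4b* and *Tfeb* lower, and they overlap for *Map1lc3b* and *Atg16l1*. Among single genes, the CPM of the groups is apart for 63.4% of all genes tested.

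Levels ranged widely within the set. By mean FPKM over the 6 libraries *Gabarap* (227), *Atg3* (137), *Sqstm1* (122) and *Map1lc3b* (92.1) led, and *Pik3r4* (1.17) and *Atg2b* (0.735) came last. The genes *Gabarap*, *Atg3* and *Map1lc3b* were thus among the most abundant and were called higher with TMM, median-of-ratios factors and both kinds of library totals. *Sqstm1* and *Atg101* at 45.4 were abundant and called higher with TMM but with neither kind of library totals. *Gabarapl2* at 51.1 was abundant and called higher under none of these. The Ctrl libraries also differed among themselves. Ctrl 2 was the lowest Ctrl library for 17 of the 37 genes, whose median length was 6.12 kb of merged exons, and the highest for 12 genes with a median length of 2.51 kb. Ctrl 1 was the lowest for 11 genes (median 2.35 kb) and the highest for 15 (median 6.49 kb), while Ctrl 3 was the lowest for 9 and the highest for 10 genes of nearly equal median length (7.07 and 7.10 kb). Across the 37 genes the fold change and the length had a Spearman rho of -0.07, given as a description since genes share their libraries, and across 10040 genes with at least 10 counts in each library it was 0.07.

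The genes around this core were read from lists of related pathways. Of 36 further autophagy genes 35 were tested, and 16 (45.7%) rose and 6 (17.1%) fell with a median log2 fold change of 0.38, beside 26.5% and 27.2% of all genes. *Wdfy3*, which encodes a large adaptor for aggregates, went from 12.8 ± 2.50 to 62.0 ± 4.84 CPM (log2 fold change 2.28 ± 0.187, SE, adjusted p = 4.01e-06, edgeR). *Ccpg1* (1.63) and *Bnip3* (1.57), receptors for the endoplasmic reticulum and for mitochondria, rose as well (adjusted p = 8.07e-06 and 4.95e-06, edgeR). *Tex264*, another receptor for the endoplasmic reticulum, fell from 21.0 ± 2.32 to 4.69 ± 2.09 CPM (log2 fold change -2.16, adjusted p = 0.000308, edgeR). *Rubcn*, whose product restrains the UVRAG complex, went down by a log2 fold change of -2.01 (adjusted p = 8.95e-05, edgeR) and *Tecpr1*, a tethering factor of autophagosomes and lysosomes, by -1.18 (adjusted p = 0.000715, edgeR). With library totals 12 of these genes (34.3%) were higher and 8 (22.9%) lower, beside 18.4% and 39.7% of all genes.

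Lysosomal genes, the end of the pathway and the best known targets of TFEB and TFE3, rose in 33 of 45 cases and fell in 0 by edgeR, with a median log2 fold change of 0.81, against 26.5% higher and 27.2% lower among all genes. *Ctsd*, which encodes the protease cathepsin D, had 484 ± 45.6 CPM in Ctrl and 1510.0 ± 71.9 CPM in LIP (log2 fold change 1.64 ± 0.0934, SE, adjusted p = 4.10e-07, edgeR). *Atp6v0a1*, a subunit of the proton pump, gave 1.84 (adjusted p = 5.50e-06, edgeR) and the membrane protein gene *Lamp2* 1.62 (adjusted p = 2.84e-06, edgeR) as log2 fold changes. With library totals 26 lysosomal genes were higher and 5 lower, beside 18.4% and 39.7% of all genes. With scaling on neutrophil markers 0 were higher and 39 (86.7%) lower, a share near the 88.2% of all genes.

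Genes of mTORC1 and AMPK signalling, the kinases that hold back and activate ULK1, were more often higher than lower with TMM, as the other autophagy genes were. Of the 25 tested among 36 listed, 12 (48%) rose and 4 (16%) fell, with a median log2 fold change of 0.47, beside 26.5% and 27.2% of all genes. With library totals 5 (20%) were higher and 6 (24%) lower, beside 18.4% and 39.7% of all genes. *Eif4ebp1*, an mTORC1 substrate that blocks translation, increased from 79.1 ± 6.14 to 273 ± 2.79 CPM (log2 fold change 1.78, adjusted p = 5.90e-07, edgeR). *Sesn2* (1.40, adjusted p = 2.07e-05, edgeR) and *Prkaa1*, the gene of an AMPK catalytic subunit (1.17, adjusted p = 0.000780, edgeR), rose too. *Sesn1*, the paralogue of *Sesn2* and likewise a sensor upstream of mTORC1, fell from 167 ± 24.4 to 28.4 ± 4.99 CPM (log2 fold change -2.56, adjusted p = 1.02e-06, edgeR). *Nprl2* (-1.14, adjusted p = 0.0175, edgeR) and *Akt1s1* (-0.98, adjusted p = 0.0369, edgeR), whose products restrain mTORC1, were lower.

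**Figure D4:**
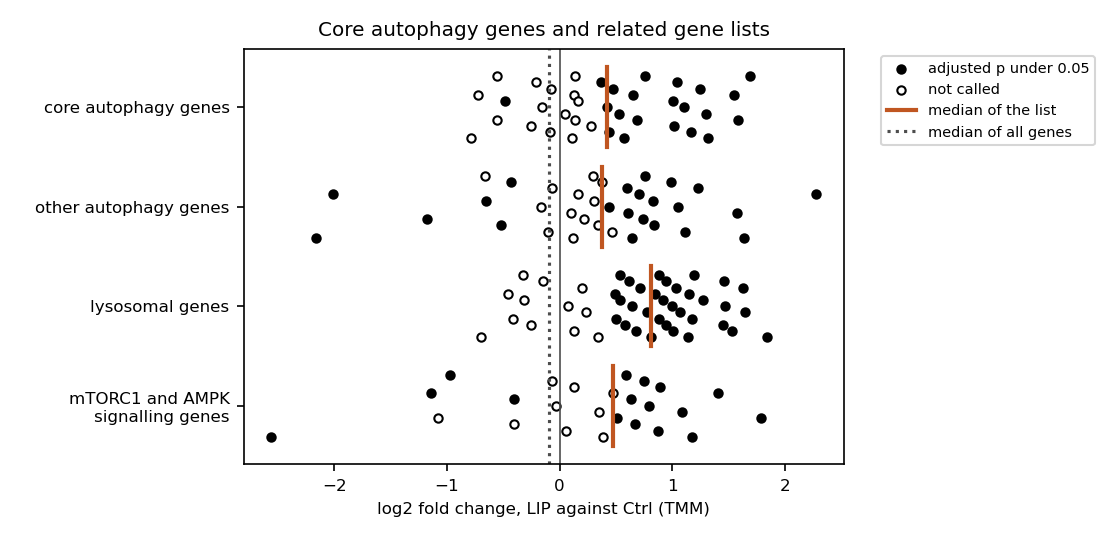
Log2 fold change of LIP against Ctrl with TMM for the 37 tested core autophagy genes and for 35 other autophagy, 45 lysosomal and 25 mTORC1 and AMPK signalling genes, 1 point a gene, filled where the adjusted p was under 0.05. List medians (orange) are 0.42, 0.38, 0.81 and 0.47 beside -0.09 for all genes (dotted), and with scaling on neutrophil markers the medians are -1.37, -1.42, -0.99 and -1.32 beside -1.89 for all genes.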

How the data were processed

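Neutrophils of 3 Ctrl and 3 LIP pools of 5 mice were profiled by Smart-seq2 with paired-end reads of 150 bp. Per gene, raw read counts and FPKM values were deposited, and the submitters' processing notes name cutadapt 1.9, FastQC and GRCm38. The aligner, the counting tool and the use of strand are not given in the sources used here, so reads of genes that share exons (*Atg9a*, *Rb1cc1*, *Atg16l2* and *Atg2b* with another expressed gene) cannot be told apart. Groups came from the sample titles.

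The 38 genes, the related lists and the marker lists were chosen with earlier results of these data known. In every role the gene with the highest mean FPKM and up to 3 called genes of largest fold change are given by library, together with *Atg5*, *Pik3r4* and *Gabarapl2*, which were added after their values were seen. From each related list the 3 called genes highest and the 3 lowest in fold change are named. On the deposited counts the quasi-likelihood test of edgeR 4.0.16 was run in R 4.3.3 with TMM and group as the only term, for genes averaging an FPKM of 1 or more, with Benjamini-Hochberg adjustment over all genes and a threshold of 0.05. A standard error is the size of the log2 fold change over the root of F. No pair of libraries of a group agreed within sampling noise (chi-square per gene of 51.9 to 126), and the common biological coefficient of variation was 0.265. On simulated counts for 10440 genes, 54% of 100 genes changed by a log2 of 1 and 86% of 100 changed by a log2 of 2 were recovered, with 6.67% false calls among 150. Only these genes differed in the simulation, with random signs, whereas 53.6% of all genes were called in the data. Its recovery and false calls therefore need not hold for the data. Alternatives were other scalings, filters, DESeq2 1.42.0, limma 3.58.1 on log2(FPKM + 1) and log2(FPKM + 0.1), a replicate block and fits that leave out a library. Totals without haemoglobin genes were added after seeing the data.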

Additional observations from a re-analysis of the deposited data

How the results depend on the processing

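Fewer members of the set were called higher than the 20 of the TMM fit with library totals (10), totals without haemoglobin genes (8), neutrophil markers (0), a mean FPKM of at least 5 (13 of 27 tested), limma on log2(FPKM + 1) (11) and on log2(FPKM + 0.1) (11). Genes called lower numbered 6, 8, 34, 3, 7 and 5 under these, and 0 without a filter and with filterByExpr. Among all genes the limma fits called 19.3% and 18.9% higher and 40.7% and 39.7% lower. At a mean FPKM of at least 5, 33.2% of all genes tested were higher and 35.1% lower. The median log2 fold change became 0.10 with library totals, 0.12 in both limma fits, -0.11 without haemoglobin and -1.37 with neutrophil markers. Leaving out 1 library gave 16 to 20 genes higher, 0 to 2 lower and a median of 0.37 to 0.44. 14 genes were higher in each of these fits.

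With neutrophil markers the log2 fold change turned to -0.11 for *Ulk1*, -1.11 for *Rb1cc1*, -1.32 for *Atg101*, -1.15 for *Becn1*, -0.63 for *Atg9a*, -0.80 for *Atg2a*, -0.75 for *Wipi1*, -0.21 for *Atg3*, -0.48 for *Atg7*, -1.22 for *Atg12*, -0.55 for *Atg4c*, -0.50 for *Gabarap*, -0.78 for *Map1lc3b*, -1.03 for *Gabarapl1*, -1.37 for *Map1lc3a*, -0.25 for *Optn*, -1.36 for *Sqstm1*, -1.27 for *Nbr1*, -0.69 for *Tfe3* and -1.43 for *Tfeb*. Without haemoglobin it was -0.057 for *Atg101*, -0.091 for *Sqstm1*, -0.00017 for *Nbr1*, -0.11 for *Map1lc3a* and -0.16 for *Tfeb*. These scalings move all genes together by construction.

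Among all genes, 68, 1460 and 1768 were called higher and 9209, 5120 and 1869 lower with neutrophil markers, without haemoglobin and at a mean FPKM of at least 5. The stricter filter left 5328 genes, and the other fits named tested 10440. Higher calls were 0.651%, 14% and 33.2%, and lower calls 88.2%, 49% and 35.1%. With library totals 18.4% of all genes were higher and 39.7% lower, and without a filter 8.35% and 7.51%. Leaving out 1 library gave 2419 to 2615 higher and 2255 to 2770 lower. Of the other autophagy genes, 1 (2.86%) was higher and 32 (91.4%) lower with neutrophil markers. Without haemoglobin 6 (17.1%) were higher, and at the stricter filter 3 (11.5%) were lower. With 1 library left out 13 to 17 were higher and 5 to 7 lower. Lysosomal genes had 0 higher with neutrophil markers, and 5, 39, 8, 2, 6 and 6 lower with library totals, neutrophil markers, no haemoglobin, the stricter filter and both limma fits (33 to 35 higher and 0 to 1 lower with 1 library left out). Genes of mTORC1 and AMPK signalling had 5, 0, 3, 7 and 7 higher with library totals, neutrophil markers, no haemoglobin and both limma fits. Their lower calls were 24 and 8 with neutrophil markers and no haemoglobin, and 2 without a filter and at the stricter filter (12 to 13 higher and 1 to 3 lower with 1 library left out).

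Differences in share, in percentage points, kept their sign with 1 library left out: *Ulk1* 21.1 to 23.1, *Wipi1* 11.1 to 16.2, *Atg2a* 9.51 to 13, *Atg16l1* 1.52 to 7.63, *Map1lc3b* 0.51 to 1.80, *Gabarap* 11.9 to 13.5, *Gabarapl2* -10.8 to -10.0, *Atg4b* -8.20 to -5.07 and *Tfeb* -11.4 to -7.34. Same-numbered libraries are pools of different mice, and deviations of the pairs correlated at -0.01, 0.04 and 0.02. The replicate block gave 20 genes higher, 1 lower and a median of 0.43, and not every library correlated best with its own number.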
